A study of Mus musculus with 60 samples.

Results

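Cadherins and protocadherins are adhesion molecules of the cell surface, and their marking by 2 histone modifications was described here in hippocampal nuclei of young mice taken the day after a period with or without a running wheel. The genes were chosen by name: every Cdh gene with a number except the endothelial Cdh5, every Pcdh gene, and the peaks that overlapped the Pcdha, Pcdhb and Pcdhg clusters on chromosome 18. The annotation held 92 such genes, 34 of them non-clustered and 58 clustered. Peaks were assigned to 35 of the 92, to 30 non-clustered and 5 clustered genes, out of 16994 gene symbols with a peak in the whole series. They took 2445 of 256375 peaks in 12 lists, between 0.606 and 1.12% of a list.

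Cadherins bind to the same or related cadherins on a neighbouring cell through repeated extracellular domains that need calcium, and classical cadherins couple to actin through catenins. In the hippocampus they are known for sorting neurons and matching axons to layers and for holding the synaptic cleft. Clustered protocadherins are expressed in combinations that give single neurons a surface identity, each isoform from an exon with its own promoter, which in Pcdha and Pcdhg is joined to shared constant exons. H4K8ac, acetylation of lysine in the tail of histone H4, is found at active genes and enhancers, and H3K27me3, the methylation laid down by Polycomb repressive complex 2, at repressed ones.

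The nuclei came from the hippocampus of male Emx1-NuTRAP mice, in which an Emx1-driven Cre turns on tags on the nuclear envelope and the ribosome. Emx1-Cre marks mostly excitatory neurons, and also progenitors. The study names astrocyte expression for the striatum, and its flow cytometry of hippocampus showed no distinct population of tagged astrocytes. Exercised mice could run freely on a cage wheel between day 21 and day 41 of life, sedentary mice lived in cages without a wheel, and all groups carried the same alleles. CUT&RUN, which cuts free the DNA bound by an antibody, was run on nuclei purified in 3 arms: together with RNA from both hippocampi (SIT), or by a separate isolation from the left or the right hippocampus, the other hemisphere going to RNA, so that the left and right lists came from different mice. The 40 H4K8ac and H3K27me3 samples, 3 or 4 a group, map to 12 peak lists, 1 for each mark, condition and arm. By the study's methods, libraries with too high a false discovery rate were left out of peak calling, and all of these were exercised H4K8ac libraries, of SIT and of the separate isolations. The exercised H4K8ac lists may therefore rest on fewer libraries than the sedentary ones, which cannot be told apart from exercise in any H4K8ac comparison below. The 20 IgG samples have no list here. A list gives intervals and an assigned gene without counts, signal or replicates, so that depth is unknown and each list is 1 unit. A peak list also cannot tell apart more nuclei with a mark from more of the mark per nucleus.

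Lists differed in length within arms, and in no fixed direction. H4K8ac lists held between 12168 and 38136 peaks, with the exercised list longer in SIT and shorter in left and right. H3K27me3 lists held between 9899 and 25693 peaks, with the exercised list longer in SIT and left and shorter in right. Of 6 markers of excitatory neurons, between 3 and 6 had an assigned H4K8ac peak in a list, against 0 or 1 of 4 markers of inhibitory neurons, whose starts lay in H3K27me3 peaks for 3 of 4 in every list. Markers of astrocytes had H4K8ac peaks for 1 to 3 of 4, of oligodendrocytes for 1 to 3 of 4, of microglia for 1 or 2 of 4 and of endothelial cells for 1 or 2 of 4. Aqp4 of astrocytes, Mbp of oligodendrocytes, P2ry12 of microglia and Pecam1 of endothelial cells were listed for H4K8ac in all 6 lists, and the excitatory gene Prox1 for H3K27me3 in all 6. In an H4K8ac list at most 1 of 6 excitatory, 1 of 4 astrocyte and 1 of 4 oligodendrocyte starts, and no microglial or endothelial start, was inside a peak. H3K27me3 peaks held 1 or 2 of 6 excitatory, 2 of 4 endothelial, 1 of 4 oligodendrocyte, at most 1 of 4 microglial and 0 of 4 astrocyte starts. The part of other cell types in the values below was not tested.

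Sequence from 4 promoters is shown because peaks touched them in 4 or 5 of the 6 lists of 1 mark and in no list of the other, and because none of their bases is exonic in the annotations used. Each is the 250 bases before a RefSeq start (GRCm38.p6), 5′ to 3′ on the strand of the gene, with CpG dinucleotides in capitals. Cdh10 (chr15:18820079-18820328, plus strand), Pcdh20 (chr14:88471397-88471646, minus strand) and Pcdh8 (chr14:79771313-79771562, minus strand) were touched by H4K8ac peaks in 5 lists, and Cdh26 (chr2:178430265-178430514, plus strand) by H3K27me3 peaks in 4.
Cdh10: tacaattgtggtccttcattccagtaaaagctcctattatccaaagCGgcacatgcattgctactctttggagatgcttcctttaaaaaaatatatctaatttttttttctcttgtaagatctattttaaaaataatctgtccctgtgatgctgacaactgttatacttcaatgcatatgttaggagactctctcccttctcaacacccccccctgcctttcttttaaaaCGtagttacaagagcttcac
Pcdh20: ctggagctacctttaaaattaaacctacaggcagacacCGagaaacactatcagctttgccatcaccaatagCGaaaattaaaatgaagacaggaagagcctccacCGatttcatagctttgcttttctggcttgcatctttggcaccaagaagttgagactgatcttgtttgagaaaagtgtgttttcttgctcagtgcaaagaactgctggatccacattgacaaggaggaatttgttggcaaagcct
Pcdh8: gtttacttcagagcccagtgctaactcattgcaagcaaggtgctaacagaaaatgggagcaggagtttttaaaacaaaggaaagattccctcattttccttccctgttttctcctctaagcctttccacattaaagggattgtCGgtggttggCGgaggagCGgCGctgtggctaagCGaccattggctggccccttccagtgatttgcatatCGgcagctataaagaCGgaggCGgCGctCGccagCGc
Cdh26: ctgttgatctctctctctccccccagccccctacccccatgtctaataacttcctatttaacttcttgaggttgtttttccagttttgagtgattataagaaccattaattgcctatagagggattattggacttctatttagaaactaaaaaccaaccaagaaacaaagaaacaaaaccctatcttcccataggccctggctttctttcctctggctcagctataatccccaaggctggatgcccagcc

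The promoters of Cdh10 and Pcdh20 held fewer CpG than most promoters, and that of Pcdh8 more. The motif searched was CG, which reads the same on both strands. Cdh10 held 2, Pcdh20 held 3 and Pcdh8 held 11, where the median over all 32851 RefSeq promoters was 6 and that over the 8483 promoters touched by H4K8ac alone was 13. Among all promoters, 81.2% held at least as many CpG as that of Cdh10, 71.0% as that of Pcdh20 and 35.6% as that of Pcdh8. Windows with more CpG were also touched by H4K8ac, in 2 lists at Cdh8, with 20 CpG, and at Pcdh9, with 18, and in 3 lists at a Cdh7 promoter with 17. The promoter of Cdh26 held 0, against a median of 6 over the 4031 promoters touched by H3K27me3 alone. RefSeq promoters were matched for 22 of the 34 non-clustered genes, with 25 windows. The window of Cdh22, with 30 CpG, was touched by neither mark, and that of Pcdh18, with 23 CpG, by H3K27me3 in 5 lists.

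Most non-clustered genes were listed for at least one of the marks. Of 34 genes, 28 had an assigned H4K8ac peak in at least 1 of 6 lists, against 52% of all protein-coding genes, and 15 in all 6 lists, against 12.4%. For H3K27me3 the numbers were 18 genes in at least 1 list, against 28.1%, and 12 genes in all 6, against 10.7%. These genes are long, with a median span of 125.8 kb against 17.4 kb for protein-coding genes. Cdh16, Cdh24, Pcdh11x and Pcdh12 had no assigned peak in any of the 12 lists.

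**Figure D1:**
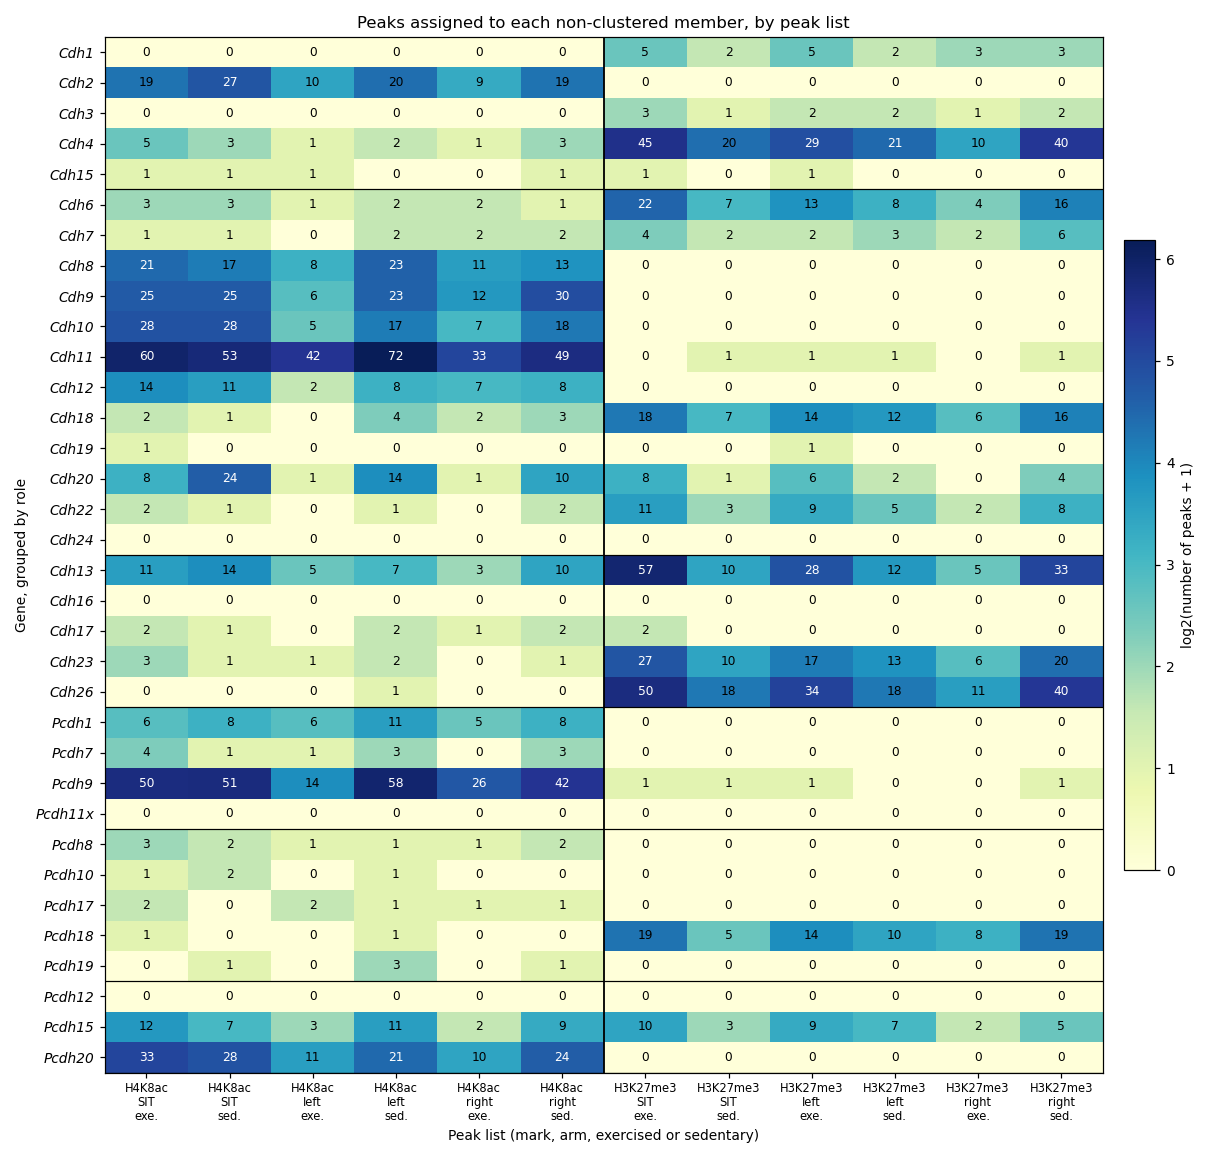
Number of peaks assigned to each of the 34 non-clustered genes (rows, by role) in each of the 12 peak lists (columns), coloured by log2(number + 1). Cdh2, Cdh8 to Cdh12 and most Pcdh genes have counts on the H4K8ac side, while Cdh1, Cdh3, Cdh26 and Pcdh18 have theirs on the H3K27me3 side.

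The marks were shared out unevenly between the genes. Of the 30 genes with a peak, 14 had at least 90% of their peaks in H4K8ac lists, 6 had at most 10% there, and 10 lay between. By presence in any list, 12 genes had H4K8ac alone, 2 had H3K27me3 alone and 16 had both. Over all 16994 symbols 56.5% had H4K8ac alone, 20.1% H3K27me3 alone and 23.5% both, so that having a single mark was not more frequent among the members than among genes in general. Within an arm and condition, between 0 and 2 of all 125 to 322 H4K8ac member peaks, those of genes without H3K27me3 included, overlapped an H3K27me3 peak, at Cdh4 and Cdh6 in the exercised SIT lists and at Pcdh18 in the sedentary left lists. That share was at most 0.621%, within the range over all H4K8ac peaks of 0.117 to 0.700%, and so is not particular to the members.

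Among type I cadherins, Cdh2 (N-cadherin, the classical cadherin of neurons and of excitatory synapses) had H4K8ac alone. It was assigned 19 H4K8ac peaks in the exercised and 27 in the sedentary SIT list, 10 and 20 in left, and 9 and 19 in right, and no H3K27me3 peak in any list. Cdh1 (E-cadherin) and Cdh3 (P-cadherin), the epithelial neighbours on chromosome 8, had H3K27me3 in all 6 lists and no H4K8ac peak. Cdh1 had 5 and 2 H3K27me3 peaks in SIT, 5 and 2 in left, and 3 and 3 in right, and Cdh3 had 3 and 1, 2 and 2, and 1 and 2. The start of Cdh1 lay inside an H3K27me3 peak in 6 of 6 lists, and that of Cdh3 in 5 of 6, all but the exercised right list. The widest Cdh1 peaks measured 13989 and 7764 bp in SIT, 9077 and 11326 bp in left, and 8272 and 13041 bp in right (exercised, then sedentary). An interval of 7597 bp over the Cdh1 start (chr8:106600310-106607906) was covered in all 6 lists. Cdh15 (M-cadherin, of muscle) had 1 and 1 H4K8ac peaks in SIT, 1 and 0 in left, and 0 and 1 in right, and 1 H3K27me3 peak in each of the exercised SIT and left lists.

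Of 12 type II cadherins, 5 had at least 90% of their peaks in H4K8ac lists, 6 had a mixture, and Cdh24 had no peak. Cdh8, Cdh9, Cdh10, Cdh11 and Cdh12, of which Cdh9 is known for its place at mossy fibre synapses on CA3 neurons, had H4K8ac in all 6 lists. Cdh11 was assigned more H4K8ac peaks than any other member, 60 and 53 in SIT, 42 and 72 in left, and 33 and 49 in right (exercised, then sedentary). Its peaks covered between 25.6 and 66.9% of the gene (chr8:102632095-102785642, minus strand), with 52.1% of them annotated as distal intergenic. A single distal H3K27me3 peak, some 210 kb from the start, was assigned to it in both left lists and in the sedentary SIT and right lists. Cdh9 had 25 and 25 H4K8ac peaks in SIT, 6 and 23 in left, and 12 and 30 in right. Cdh10 had 28 and 28, 5 and 17, and 7 and 18. Cdh8 had 21 and 17, 8 and 23, and 11 and 13, and Cdh12 had 14 and 11, 2 and 8, and 7 and 8. None of these 4 genes had an H3K27me3 peak, and within each arm their counts were lower in the shorter list of left and right.

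Cdh6, Cdh18 and Cdh22, also type II, carried mainly H3K27me3. Cdh6 had 22 and 7 H3K27me3 peaks in SIT, 13 and 8 in left, and 4 and 16 in right (exercised, then sedentary), and its start lay in a peak in 6 of 6 lists. Cdh6 also had 3 and 3 H4K8ac peaks in SIT, 1 and 2 in left, and 2 and 1 in right, 8 of the 12 of them distal. Cdh18 had 18 and 7 H3K27me3 peaks, 14 and 12, and 6 and 16. Cdh22 had 11 and 3, 9 and 5, and 2 and 8, and H3K27me3 covered between 5.22 and 45.4% of its span. H4K8ac at Cdh18 gave 2 and 1, 0 and 4, and 2 and 3 peaks, and at Cdh22 it gave 2 and 1, 0 and 1, and 0 and 2. Cdh7 had 4 and 2 H3K27me3 peaks in SIT, 2 and 3 in left, and 2 and 6 in right, with none at its start. It had 1 and 1, 0 and 2, and 2 and 2 H4K8ac peaks, and its start was in an H4K8ac peak in the sedentary left and right lists. Cdh19, a cadherin of Schwann cells, had 1 peak of each mark in all.

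Among the other cadherins, Cdh23 (of hair cell tip links) and Cdh26 carried H3K27me3 with almost no H4K8ac. Cdh23 had 27 and 10 H3K27me3 peaks in SIT, 17 and 13 in left, and 6 and 20 in right (exercised, then sedentary), and one interval of 9859 bp in the gene (chr10:60579287-60589145) was covered in all 6 lists. Cdh26 had 50 and 18, 34 and 18, and 11 and 40. Of its 171 peaks, 86.0% were distal intergenic, lying as far as 506.1 kb past its start, so that most of them were outside the gene. The start of Cdh26 lay in an H3K27me3 peak in the exercised SIT and left lists and the sedentary right list, the longer H3K27me3 list of each arm. H4K8ac at Cdh23 gave 3 and 1, 1 and 2, and 0 and 1 peaks, and Cdh26 had 1 H4K8ac peak, in the sedentary left list. Cdh17 had 2 and 1 H4K8ac peaks in SIT, 0 and 2 in left, and 1 and 2 in right, all 8 of them distal intergenic, and 2 H3K27me3 peaks in the exercised SIT list.

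Among delta protocadherins with peaks, Pcdh18 was the one with more H3K27me3 than H4K8ac. Pcdh9 (delta-1) had 50 and 51 H4K8ac peaks in SIT, 14 and 58 in left, and 26 and 42 in right (exercised, then sedentary). Of its positions, 11 intervals totalling 14.7 kb were covered in all 6 lists, between 8.48 and 346.8 kb from the start of the gene (chr14:93013410-93890679, minus strand). Pcdh9 also had 1 distal H3K27me3 peak in both SIT lists and in the exercised left and sedentary right lists, some 543 kb before its start. Pcdh20, outside the delta groups, had 33 and 28, 11 and 21, and 10 and 24, with 66.9% distal, and H4K8ac covered between 25.6 and 99.9% of this 6.65 kb gene. Pcdh1 had 6 and 8, 6 and 11, and 5 and 8, most of them distal intergenic. Pcdh8 (arcadlin, induced by activity in hippocampal neurons) had 3 and 2 H4K8ac peaks in SIT, 1 and 1 in left, and 1 and 2 in right, and its start was in a peak in both SIT lists and in the sedentary left and right lists.

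Pcdh7, Pcdh10 and Pcdh17 had few H4K8ac peaks and no H3K27me3 peak. Pcdh7 had 4 and 1 H4K8ac peaks in SIT, 1 and 3 in left, and 0 and 3 in right. Pcdh17 had 2 and 0, 2 and 1, and 1 and 1 assigned peaks, while H4K8ac peaks lay within its span in all 6 lists. Pcdh10 had 1 and 2, 0 and 1, and 0 and 0. Pcdh18 (delta-2) had H3K27me3 in all lists, 19 and 5 peaks in SIT, 14 and 10 in left, and 8 and 19 in right, with the start in a peak in 5 of 6, beside 1 distal H4K8ac peak in each of the exercised SIT and sedentary left lists. Upstream of Pcdh18, an interval of 5197 bp (chr3:49865763-49870959) some 111 kb before the start was covered in 6 of 6.

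Pcdh19 (delta-2, on the X chromosome, known for an epilepsy of heterozygous females) was listed for H4K8ac in the sedentary list alone in 3 of 3 arms. It had 0 peaks in the exercised and 1 in the sedentary SIT list, 0 and 3 in left, and 0 and 1 in right. Of 13585 genes with an H4K8ac peak, 0.891% were listed for the sedentary condition alone in 3 of 3 arms, and Pcdh19 was the 1 such gene of 30 members listed for H4K8ac. The sedentary peaks sat at −2.14 kb from the start in SIT, at −1.51, 32.8 and 1041 kb in left, and at 78.7 kb in right. The SIT peak overlapped the first of the left peaks, and no site was shared by the 3 sedentary lists. The call rests on 5 peaks.

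Cdh4, Cdh6, Cdh13 and Pcdh15 had both marks in all 6 pairs of lists, and in Cdh13 and Cdh4, picked after the peaks were seen, most peaks of each mark lay in separate stretches. This did not hold for every gene with both marks: at Cdh6 the H4K8ac peaks, from −1635 to 142.7 kb from the start, spanned most of the H3K27me3 range of −661.8 to 144.3 kb, with a smallest gap of 0 kb, at Cdh20 the H4K8ac and H3K27me3 peaks ranged over overlapping stretches, with a gap down to 1.76 kb, and at Cdh23 the H4K8ac peaks lay inside the range of the H3K27me3 peaks. Cdh13 (T-cadherin, without a cytoplasmic domain and tied to the membrane by a lipid anchor, at chr8:118283733-119324921) was covered by H3K27me3 in its first part and upstream and by H4K8ac in its last part. It had 57 and 10 H3K27me3 peaks in SIT, 28 and 12 in left, and 5 and 33 in right (exercised, then sedentary), and 11 and 14, 5 and 7, and 3 and 10 H4K8ac peaks. With a boundary placed at 600 kb from the start after the peaks were seen, 138 of 145 H3K27me3 peaks lay before it and 47 of 50 H4K8ac peaks after it. The side was the same in every list: at most 1 H4K8ac peak of a list lay before the boundary, and at most 1 H3K27me3 peak after it except 5 of 57 in the exercised SIT list. A pair of H4K8ac intervals about 736 kb from the start (chr8:119018995-119019951 and chr8:119020531-119021701) was covered in all 6 lists.

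Cdh4 (R-cadherin, a type I cadherin of the developing brain, chr2:179442431-179899373) had a similar layout. H3K27me3 gave 45 and 20 peaks in SIT, 29 and 21 in left, and 10 and 40 in right, over 5.52 to 41.3% of the gene. H4K8ac gave 5 and 3, 1 and 2, and 1 and 3. Before a boundary at 370 kb, again set after the peaks were seen, lay 153 of 165 H3K27me3 peaks and 1 of 15 H4K8ac peaks. The other 12 H3K27me3 peaks lay past it with 14 H4K8ac peaks, and in the exercised SIT lists a peak of each mark overlapped. One intronic interval of 608 bp (chr2:179852379-179852986), 410.3 kb from the start, was covered by H4K8ac in all 6 lists, and in the left and right exercised lists it held the only H4K8ac peak of the gene. Its middle 300 bases (chr2:179852533-179852832, plus strand, GRCm38.p6, with no exonic base) are shown because this site had H4K8ac in every list within a gene that had mostly H3K27me3 peaks, with CpG in capitals.
Cdh4 intron: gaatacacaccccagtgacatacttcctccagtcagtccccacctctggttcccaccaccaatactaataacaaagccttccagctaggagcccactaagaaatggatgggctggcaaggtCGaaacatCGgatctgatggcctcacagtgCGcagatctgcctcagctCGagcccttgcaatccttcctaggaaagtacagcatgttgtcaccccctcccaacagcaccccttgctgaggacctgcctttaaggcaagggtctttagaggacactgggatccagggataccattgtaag

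The interval held 4 CpG in 300 bases at 53% G and C.

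**Figure D2:**
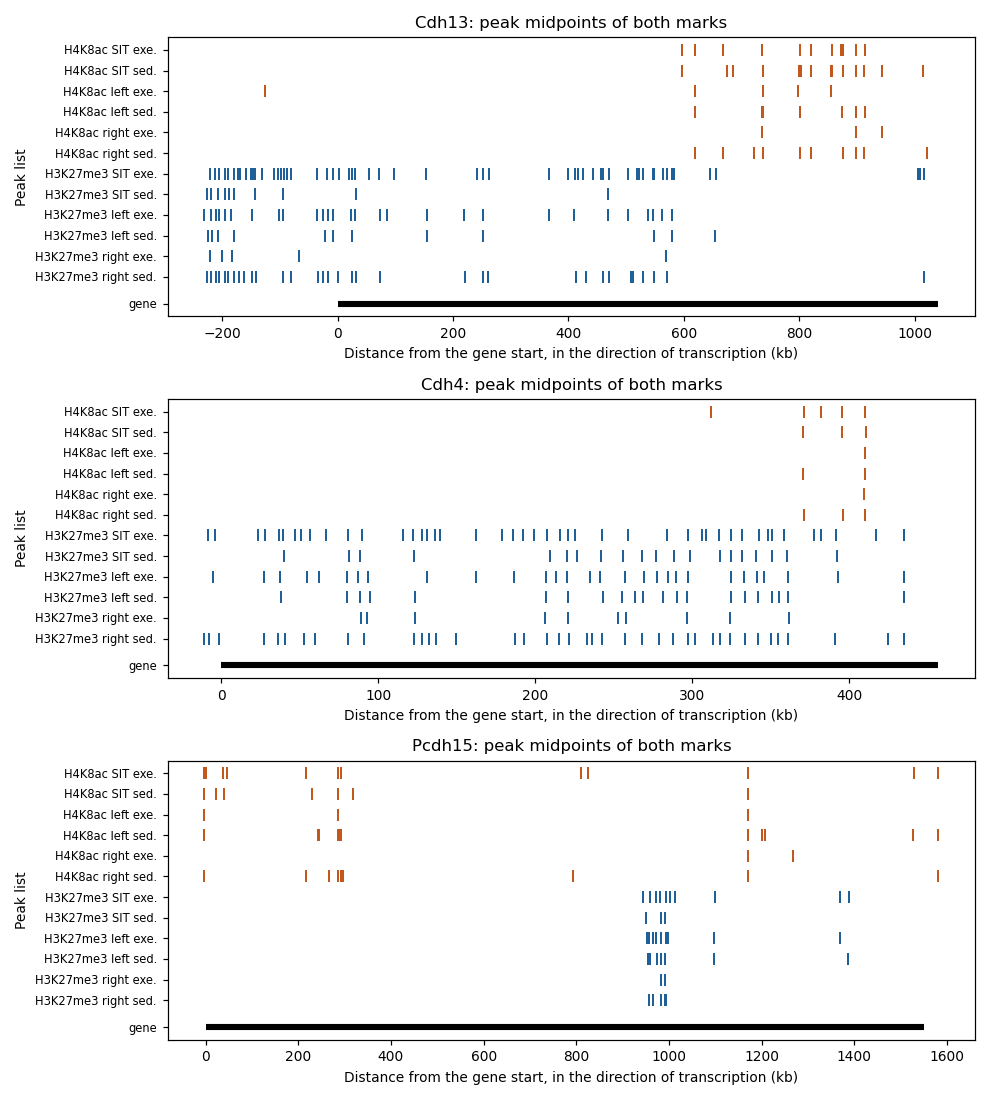
Midpoints of all peaks assigned to Cdh13, Cdh4 and Pcdh15 by distance from the start of the gene in kb, 1 row per peak list (H4K8ac orange, H3K27me3 blue), with the span of the gene as a black bar. Most H3K27me3 peaks lie before and most H4K8ac peaks after the boundary in Cdh13 and Cdh4, with exceptions past it, while in Pcdh15 9 of 44 H4K8ac peaks lie within the range of the H3K27me3 peaks.

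Pcdh15 (of hair cell tip links, the partner of Cdh23) had H3K27me3 peaks in the later part of the gene alone. It had 10 and 3 H3K27me3 peaks in SIT, 9 and 7 in left, and 2 and 5 in right, all 36 between 944.8 and 1389 kb from the start, a range that also held 9 of the 44 H4K8ac peaks. H4K8ac gave 12 and 7, 3 and 11, and 2 and 9 peaks, of which 30 lay before 900 kb and 14 after. An H3K27me3 interval of 5346 bp (chr10:74078756-74084101) was covered in 6 of 6 lists. The gap between the nearest H4K8ac and H3K27me3 peaks of Pcdh15 was between 68.8 and 177.5 kb in the 6 pairs of lists. Cdh18, with 12 H4K8ac peaks, had them all at 400 kb or further from the start, a boundary also set after the peaks were seen, where 25 of its 73 H3K27me3 peaks lay, and the nearest gap between marks was 6.81 kb. The RefSeq promoter of Cdh18 (chr15:23036213-23036462) lies past that boundary inside the gene, and H4K8ac touched it in 3 of 6 lists.

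Cdh20 (type II, chr1:104768529-104995481) was, of the 12 members with 20 or more H4K8ac peaks, the one with an H4K8ac share at least 2-fold lower after exercise in every arm. It had 8 H4K8ac peaks in the exercised and 24 in the sedentary SIT list, 1 and 14 in left, and 1 and 10 in right. Per 10000 peaks of the list this came to 2.10 and 7.91 in SIT, 0.822 and 3.84 in left, and 0.729 and 3.97 in right. The exercised list was the longer one in SIT and the shorter one in left and right, and the part of list length in these counts was not tested. The covered part of the gene was 5.29 and 8.45% in SIT, 1.04 and 4.45% in left, and 1.29 and 4.20% in right, against 4.38 and 2.50%, 1.48 and 3.79%, and 1.38 and 3.01% over all protein-coding genes. Of 1963 genes with 20 or more H4K8ac peaks in all, 6 (0.306%) had a share at least 2-fold lower with exercise in each of the 3 arms, Cdh20 among them, and 0 had one at least 2-fold higher. The fold and the minimum were set after these values were seen. No test was run for single genes, where an exact permutation over 3 arms cannot give a p under 0.25. Exercised H4K8ac libraries had been left out of peak calling, while the study's figure of the SIT peaks counts fewer sedentary than exercised mice. The part of either in the Cdh20 counts was not tested.

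The positions of the Cdh20 peaks are given as a description. In all, 5 intervals were covered by all 3 sedentary H4K8ac lists, at −542.7, 0.801, 28.0, 144.0 and 187.7 kb from the start. The intervals at 0.801 kb, just inside the gene, and at 187.7 kb were covered in none of the 3 exercised lists. These 5 were chosen for being in the sedentary lists, so the exercised lists could hold only as many or fewer. No interval was covered in all 3 exercised lists (0), of which left and right hold 1 Cdh20 peak each. Those at −542.7 and 28.0 kb were covered in the exercised SIT list alone of the 3, and the one at 144.0 kb in the exercised SIT and right lists. H3K27me3 at Cdh20 gave 8 and 1 peaks in SIT, 6 and 2 in left, and 0 and 4 in right, with more in the longer list of each arm. Per 10000 peaks of the list this came to 3.11 and 0.973 in SIT, 3.29 and 1.38 in left, and 0 and 1.84 in right. The part of list length in these values was not tested.

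**Figure D3:**
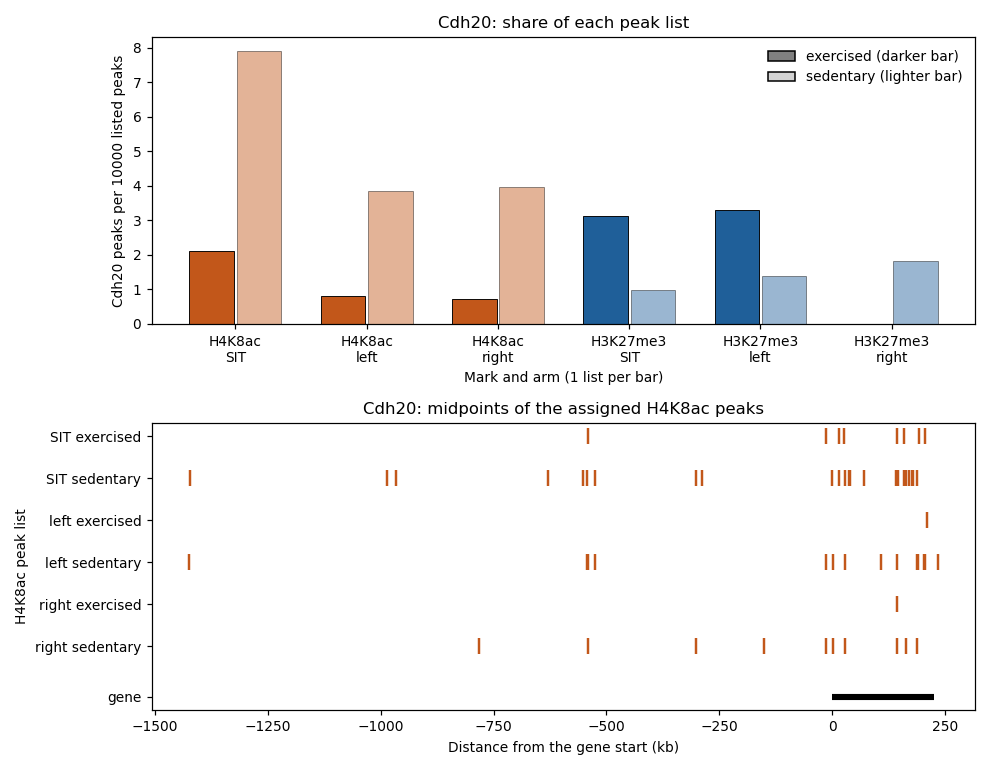
Above, Cdh20 peaks per 10000 listed peaks for each mark and arm, 1 list per bar with no error; below, midpoints of the assigned H4K8ac peaks by distance from the gene start in kb, with the gene as a black bar. The exercised H4K8ac bar is lower than the sedentary one in 3 of 3 arms, while for H3K27me3 it is higher in SIT and left and at 0 in right.

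The direction of the share in the 3 arms was mixed for most members. Among the 12 members with 20 or more H4K8ac peaks, Cdh9, Cdh10 and Cdh20 had a lower share with exercise in each of the 3 arms and 0 a higher one, where 15.5% of the 1963 genes were lower in all 3 and 12.2% higher. For H3K27me3, Cdh1 was the 1 member of 11 with a higher share in the exercised list in 3 of 3 arms, against 6.56% of 1235 genes. Its shares were 1.95 peaks per 10000 in both SIT lists, a difference too small to show at that rounding, 2.74 against 1.38 in left, and 3.03 against 1.38 in right.

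By presence in a list, members that changed between conditions were those with few peaks. In SIT, 3 of 28 members listed for H4K8ac were gained, that is listed in the exercised list alone (Cdh19, Pcdh17, Pcdh18), against 27.5% of all genes listed there, and 1 was lost (Pcdh19), against 10.1%. These counts became 7 gained and 3 lost with promoter peaks alone, and 1 gained and 2 lost when a peak had to overlap the gene span. Of the gained members, Pcdh17 had 4 H4K8ac peaks within its span in the sedentary SIT list, against 5 in the exercised one. None of the 4 was assigned to Pcdh17, so its gain is one of assigned symbol. In left, 1 of 29 was gained (Cdh15), against 3.58%, and 9 were lost, against 51.9%. With list lengths matched by keeping the widest peaks, left had 3 gained and 3 lost. In right, 0 of 25 were gained, against 9.14%, and 5 were lost, against 36.7%. In these pairs the lost members included Pcdh10 and Pcdh18 in left and Pcdh7 in right, and Cdh22 in both. The shares over all genes here and in the next paragraph are those with all peaks kept. Counts under the alternatives therefore have no share of all genes beside them.

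For H3K27me3 in SIT, 4 of 20 members were gained (Cdh15, Cdh17, Pcdhga1, Pcdhga2), against 41.4% of genes, and 1 was lost (Cdh11), against 1.02%. With list lengths matched, 0 were gained. In left, 3 of 18 were gained (Cdh15, Cdh19, Pcdh9), against 18.5%, and 0 were lost, against 9.13%. These counts became 0 gained and 1 lost by gene span, and 1 gained and 1 lost with the widest 50% of peaks. In right, 0 of 17 were gained, against 3.12%, and 5 were lost (Cdh11, Cdh20, Pcdh9, Pcdhb1, Pcdhga1), against 43.6%. Of these 5, 1 had a sedentary peak that overlapped an exercised peak, so that it was lost by assigned symbol alone. Without distal intergenic peaks 3 were lost, and by gene span 2. By assigned symbol with all peaks kept, the majority direction in each arm was that of the longer list, which by gene span did not hold for H4K8ac in SIT or H3K27me3 in left. Members with many peaks stayed in both lists, and the genes that changed had between 1 and 4 peaks of that mark in the list where they were present.

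Overlap of member peaks between conditions was set beside that of all peaks. In SIT, 49.4% of 322 exercised H4K8ac member peaks overlapped a sedentary peak (95% Wilson interval 44.0 to 54.8%), against 43.9% of all peaks of the list. In left the share was 72.0% (63.6 to 79.1%) against 73.1%, and in right 72.7% (64.7 to 79.4%) against 68.0%. For H3K27me3 it was 31.7% (26.6 to 37.3%) against 37.2% in SIT, 54.5% (47.4 to 61.5%) against 61.4% in left, and 95% (86.3 to 98.3%) against 94.7% in right. When the overlap had to cover 50% of both peaks, the members' shares fell to 24.8, 32.8 and 34.5% for H4K8ac and to 18.5, 34.8 and 23.3% for H3K27me3. The shares over all peaks are for an overlap of at least 1 bp, so it cannot be told whether this fall is particular to the members. Of the sedentary H4K8ac member peaks, 55.5% overlapped an exercised peak in SIT, 28.8% in left and 36.5% in right, against 59.0, 25.2 and 35.6% of all sedentary peaks. Of the sedentary H3K27me3 member peaks it was 97.8% in SIT, 80.5% in left and 24.1% in right (18.9 to 30.2%), against 98.1, 82.1 and 31.6%. In each arm and mark the higher share was that of the shorter list. The intervals cover counting error over peaks, which are not independent along a gene, and not differences between mice. For exercised H4K8ac peaks in SIT the value over all peaks lay just under the interval of the members, at 43.92% against a bound of 43.96%. For sedentary H3K27me3 peaks in right it lay above the interval. Because peaks are not independent, neither is a test of a difference between members and all peaks.

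Member peaks were less often at promoters and more often in introns than peaks in general, in all 12 lists. Between 4.73 and 12.8% of the H4K8ac member peaks were annotated to promoters, against 19.3 to 26.5% of all peaks of a list, and 41.6 to 51.3% to introns, against 34.6 to 40.1%. For H3K27me3, 8.01 to 13% were at promoters, against 17.9 to 25.4%, and 38.0 to 44.9% in introns, against 18.5 to 21.2%. Distal intergenic peaks made up 26.6 to 35.4% of H4K8ac member peaks, against 25.9 to 31.0%, and were more frequent than in the list in 5 of 6 lists. For H3K27me3 they made up 33.9 to 40%, against 41.3 to 46.7%. The start of 12 of the 34 non-clustered genes was inside an H4K8ac peak in at least 1 list, against 26.4% of protein-coding genes, and of 0 in all 6, against 1.07%. For H3K27me3 it was 8 genes, against 12.1%, and 2 genes in all 6 (Cdh1 and Cdh6), against 4.24%.

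The clustered genes were largely without peaks. Of 58 starts of clustered genes, 1 lay in an H4K8ac peak (Pcdhac2, in 4 of 6 lists) and 1 in an H3K27me3 peak (Pcdhb1, in 2 of 6). Reads that fit several of these similar genes could be split or dropped in alignment, so peaks in the variable exons are uncertain. H4K8ac covered between 0.670 and 1.18% of the 3 clusters and H3K27me3 between 0 and 0.282%, against 1.38 to 4.38% and 1.51 to 4.75% of all protein-coding gene spans.

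Within Pcdha (chr18:36930184-37187661), H4K8ac lay mostly at the last variable exon and toward the constant exons. A further intronic peak of 2679 bp, 216.5 kb from the start of Pcdha1, was listed in the exercised left list. A peak over the start of Pcdhac2, a C-type isoform that neurons express without the random choice of the others, was present in the exercised SIT, exercised left, sedentary left and sedentary right lists, and measured 2557, 2811, 2083 and 1480 bp. Peaks some 245 to 248 kb from the start of Pcdha1, toward the end of the cluster that all isoforms share, were present in 5 of 6 lists, all but the exercised SIT list. No peak of either mark touched the starts of the other Pcdha genes, Pcdhac1 included. Pcdhb, whose genes have no shared constant exons, had no H4K8ac peak, and H3K27me3 touched only the start of its first gene, Pcdhb1, in the exercised SIT and sedentary left lists.

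Pcdhg (chr18:37661793-37841873) had H4K8ac at its far end in all 6 lists. These peaks were assigned to Diaph1, the neighbouring formin gene, with further peaks assigned to Gm38182 in 4 lists, and an interval of 688 bp was covered in all 6 at the boundary of the cluster (chr18:37841644-37842331). A peak annotated to the promoter of Pcdhgc5 was listed once, in the sedentary left list, and did not reach its start. The starts of Pcdhgc3 and Pcdhgc4 were in no peak.

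H3K27me3 flanked the clusters more than it entered them. Between Pcdha and Pcdhb, a peak assigned to Pcdhb1 lay some 290 kb from the start of Pcdha1 in 5 of 6 lists, with widths of 4768 and 3764 bp in SIT, 1824 and 6046 bp in left, and 7580 bp in the sedentary right list. Between Pcdhb and Pcdhg, a wide peak assigned to Taf7, a subunit of the general transcription factor TFIID, was present in all 6, with widths of 10960 and 7895 bp in SIT, 11436 and 6102 bp in left, and 6379 and 10850 bp in right (exercised, then sedentary). A Pcdhga1 peak beside it was listed in the exercised SIT and sedentary right lists, and a Pcdhga2 peak inside the cluster in the exercised SIT list. Near the edge of the Taf7 peak, at some 714 to 715 kb, an H4K8ac peak was listed in the exercised SIT and right lists.

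The covered share was the one measure tested between conditions. For the non-clustered genes, H4K8ac covered 4.28 and 3.24% in SIT, 1.67 and 4.23% in left, and 1.88 and 3.73% in right (exercised, then sedentary). The mean difference was −1.12 ± 1.90 points (SD, n = 3 arms), with p = 0.50 (exact permutation over the signs of the 3 arms, two-sided). H3K27me3 covered 7.15 and 2.96%, 4.44 and 2.90%, and 0.967 and 5.30%, a mean difference of 0.465 ± 4.36 points (exact sign-flip permutation p = 1.0), which turned to −0.00526 points with list lengths matched. In each arm the sign was that over all protein-coding genes.

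For the clusters, H4K8ac covered 1.16 and 1.01% in SIT, 1.18 and 0.777% in left, and 0.670 and 0.920% in right, a mean difference of 0.101 ± 0.330 points (exact sign-flip permutation p = 0.75). It was 0.413 points with list lengths matched and 0.494 with the widest 50% of peaks, both with an exact permutation p of 0.25, the smallest possible. H3K27me3 covered 0.282 and 0% in SIT, 0 and 0.128% in left, and 0 in both right lists, a mean difference of 0.0511 ± 0.210 points (exact sign-flip permutation p = 1.0), and −0.0428 points with list lengths matched. All 4 adjusted p-values (Benjamini-Hochberg over 4 tests) were 1.0, and 3 arms cannot give a p under 0.25. None of these 4 differences, with all peaks kept, was larger than the spread between arms. In left, the cluster share of H4K8ac was higher in the exercised list, where the share over all genes was lower, at 1.48 against 3.79%.

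**Figure D4:**
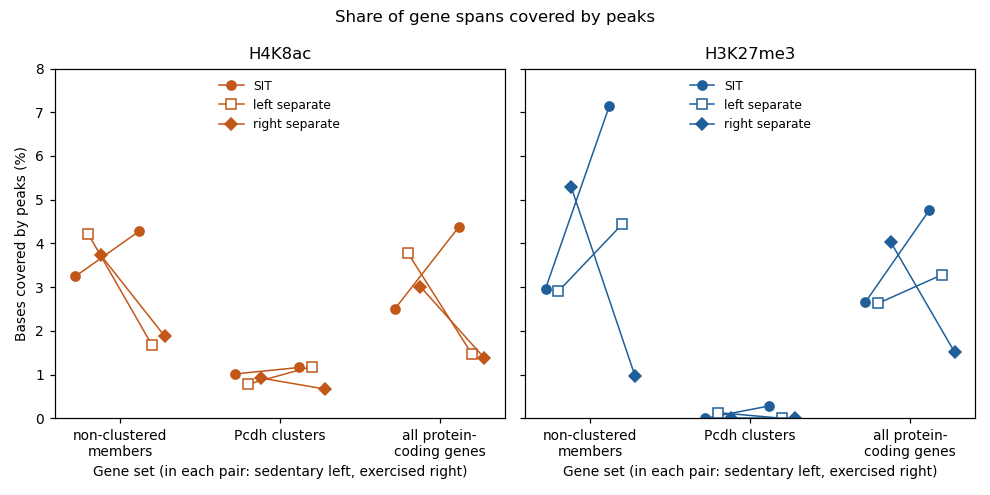
Percent of bases covered by peaks in the spans of the non-clustered genes, in the 3 Pcdh clusters and in all protein-coding genes, with 1 line per arm from the sedentary (left) to the exercised list (right) and no error, since each point is 1 list. Lines cross in direction between arms for both marks, and the clusters lie below the other sets in all 12 lists.

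Genes that work with the cadherins were counted in the same way. Of 7 catenins, which link cadherins to actin or regulate their turnover, between 5 and 7 had an assigned H4K8ac peak in a list and at most 1 an H3K27me3 peak. Ctnna2, the neuronal alpha-catenin, had 221 H4K8ac peaks over the 6 lists and no H3K27me3 peak. Over all protein-coding genes, a list held between 19.6 and 41.2% for H4K8ac and between 13.3 and 24.5% for H3K27me3. For H4K8ac in SIT, 1 of 7 catenins was gained and 0 were lost, against 27.5 and 10.1% of genes. In left 0 of 6 were gained and 0 lost, against 3.58 and 51.9%, and in right 0 and 1 of 6, against 9.14 and 36.7%. Of 13 other members of the superfamily, such as Fat, Dachsous and Celsr genes of planar polarity, 3 to 9 had H4K8ac and 3 to 5 H3K27me3 in a list. Fat1 had 94 H3K27me3 peaks and 13 of H4K8ac, and Fat4 had 30 and 76. Of 9 regulators of the clusters, such as Ctcf and cohesin subunits that fold their promoters onto enhancers, 1 to 6 had H4K8ac and 0 to 4 had H3K27me3, with Rad21 alone listed for H4K8ac in 6 of 6. For H4K8ac, the other superfamily genes had 3 gained, 0 lost and 6 in both lists in SIT, 0, 4 and 3 in left, and 0, 3 and 4 in right. The regulators had 3 gained, 1 lost and 2 in both lists in SIT, 0, 5 and 1 in left, and 0, 2 and 1 in right.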

How the data were processed

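Peak lists came from CUT&RUN of H4K8ac and H3K27me3. The authors aligned reads with Bowtie2 2.4.1, called peaks with SEACR and annotated them with ChIPseeker 1.8.6 on mm10, with promoters within 3000 bp of a start. Per the file headers, each deposited row is 1 peak with its position and its width (bp), an assigned symbol and an annotation class, and holds no counts. The authors left out exercised H4K8ac libraries of SIT and of the separate isolations, and no others, for a high false discovery rate. Their figure of the SIT peaks counts fewer sedentary than exercised mice. How libraries were combined is not given in the sources used here. The columns are therefore pooled values of their group.

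Members and gene lists were chosen with earlier results of these data known. A gene was listed if a peak was assigned to it. Gene spans and starts (the outermost 5′ base) came from GENCODE M21 (GRCm38). Overlap meant at least 1 bp. Covered shares were tested by exact sign-flip permutation over 3 arms (4 tests). All non-clustered genes are named, with values in every list for those with either mark in 4 or more of 12 lists, and the clustered genes by cluster, C-type, widest peak and starts in peaks. Interval functions were tested on simulated data and matched base-by-base counts in 20 of 20 sets. Alternatives were promoter peaks, no distal peaks, equal numbers by width, the widest 50%, gene spans, reciprocal overlap of 50% and extension by 3000 bp. Python 3.11.15, numpy 2.4.6, pandas 2.3.3, statsmodels 0.14.6 and matplotlib 3.10.9 were used.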

Additional observations from a re-analysis of the deposited data

Results flagged for a closer look

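The difference between conditions in the share of bases covered had opposite signs in different arms. For H4K8ac over the non-clustered genes, exercised minus sedentary was 1.04 points in SIT, −2.55 in left and −1.85 in right. For H3K27me3 over the same genes it was 4.19, 1.54 and −4.33 points. For H4K8ac over the clusters it was 0.147, 0.406 and −0.250 points, and for H3K27me3 over the clusters 0.282 points in SIT and −0.128 in left. With 1 list per condition and arm, the difference between arms was not tested.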

How the results depend on the processing

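No paired analysis was possible because the lists carry no replicate numbers (conditions were paired by arm alone), and for the same reason no sample could be left out in turn. Under the alternatives, 49 values kept their direction and side of the threshold (for counts, within 1.5 times; for overlap shares, within the 95% interval), 36 moved further and 2 reversed, and the cause was not tested. Keeping direction does not mean keeping size: the H4K8ac difference over the clusters went from 0.101 to 0.413 points with list lengths matched and 0.494 with the widest 50%. When list lengths were matched by keeping the widest peaks, the mean difference in H3K27me3 covered share was −0.0428 points over the clusters and −0.00526 over the non-clustered genes, both reversed. With the widest 50% of peaks it was 0 over the clusters. With promoter peaks alone, H4K8ac gave 7 gained and 3 lost members in SIT and 0 gained in left, and H3K27me3 gave 0 lost in SIT and 1 lost in left. Without distal intergenic peaks, SIT lost 2 and right gained 1 for H4K8ac, while H3K27me3 gave 0 lost in SIT, 1 gained in left and 3 lost in right. With list lengths matched, H4K8ac gave 2 lost members for SIT, with 3 gained and 3 lost in left, and H3K27me3 gave 0 gained in SIT and 1 lost in left. With the widest 50%, SIT lost 2 and right gained 1 for H4K8ac, while H3K27me3 gave 0 lost in SIT and 1 gained and 1 lost in left. With peaks overlapping the gene span, SIT gained 1 and lost 2 and right gained 2 for H4K8ac, while H3K27me3 gave 0 lost in SIT, 0 gained and 1 lost in left, and 2 lost in right. With a reciprocal overlap of 50%, exercised H4K8ac member peaks overlapped sedentary ones at 24.8% in SIT, 32.8% in left and 34.5% in right, and H3K27me3 member peaks at 18.5, 34.8 and 23.3%. With the widest 50% it was 42.0% in SIT and 61.7% in right for H4K8ac. The H4K8ac share at Cdh20 stayed lower with exercise in 3 of 3 arms under 3 alternatives chosen after seeing the data. The lists give no depth, so precision per peak is unknown. Shares over all genes or all peaks were not set beside the values under the alternatives.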

Other observations

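The pair of H4K8ac intervals assigned to Cdh9 that were covered in all 6 lists lay at −322.7 and −669.9 kb from its start, in intergenic DNA. Of the 13 Cdh11 intervals covered in all 6 H4K8ac lists, 1 lay beside the start of the gene and a pair lay at 1116 and 1688 kb from it, beyond the end of the gene.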
